A study of Homo sapiens with 12 samples.

Results

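The cytosolic ribosomal protein genes are the 76 genes of the deposited table, out of 29744 rows, whose symbols are RPL or RPS followed by a number, with an optional A or X, together with the stalk genes RPLP0, RPLP1 and RPLP2. They comprise 30 genes of the small (40S) subunit and 46 of the large (60S) subunit, and all 76 passed the filter on low counts that left 14417 genes for testing. The symbols alone picked the genes, with no measured value as a criterion. Earlier results of these data were known when the set was chosen. Some subunits carry other names and fall outside this choice, and RPSA, FAU and RACK1, listed in the table under its older symbol GNB2L1, are described beside the 76.

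Expression was measured by RNA-seq in 4 related human mammary cell lines, with 3 biological replicates of each. NeoT (MCFNeoT, named benign hyperplasia in the series design) was derived from MCF10A by introducing mutant HRAS. T1 (MCFT1) and CA1 (MCFCA1), which the design ranks as atypical hyperplasia and as invasive, descend from it through growth as xenografts, and A10 (MCF10A, not tumorigenic) is the parent of all of them and the baseline here. No treatment, dose or time differed between the lines, each of which is a single established line, so a difference between lines is a difference between these cultures. The series was made to judge a one-pot multiomics preparation, and its design text calls all 4 lines triple-negative breast cancer lines.

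A ribosome is built from ribosomal RNA and about as many proteins as there are genes here, each made in roughly equal numbers of copies because a mature ribosome holds a single copy of nearly every protein. Their mRNAs are among the most abundant in a growing cell, and most of them begin with a C followed by a run of pyrimidines, the 5′ terminal oligopyrimidine (TOP) sequence. That sequence is read by LARP1 and lets mTORC1 set how strongly the mRNAs are translated, while MYC is known for driving production of all ribosome parts, ribosomal RNA made by RNA polymerase I included. RPL5 and RPL11, when not built into ribosomes, bind the ubiquitin ligase MDM2. In breast epithelium as in other tissues these genes are usually treated as housekeeping genes.

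Annotated start sequences were taken from RefSeq (GRCh38.p14), which held 61 of the 76 genes. Each line runs 5′ to 3′ from 40 bases before the annotated start to 15 bases into the transcript, with the pyrimidine run that begins at the first transcribed base in capitals. For a gene with several annotated starts, such as RPS19 with 2, the start with the longest run is shown. The genes shown are those whose values carry the results below, picked after their values were seen, together with RPL22L1, a paralog of RPL22 that is not among the 76.
RPS6 (chr9:19380222-19380276, minus strand): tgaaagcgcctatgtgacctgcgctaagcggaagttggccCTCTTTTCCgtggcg
RPS19 (chr19:41860215-41860269, plus strand): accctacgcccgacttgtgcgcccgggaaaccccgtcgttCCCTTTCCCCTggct
RPL18 (chr19:48619164-48619218, minus strand): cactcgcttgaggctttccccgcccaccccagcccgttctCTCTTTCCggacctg
RPL13A (chr19:49487568-49487622, plus strand): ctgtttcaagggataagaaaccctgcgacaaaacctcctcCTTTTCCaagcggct
RPS27 (chr1:153990722-153990776, plus strand): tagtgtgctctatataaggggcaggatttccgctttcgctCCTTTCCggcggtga
RPS21 (chr20:62387063-62387117, plus strand): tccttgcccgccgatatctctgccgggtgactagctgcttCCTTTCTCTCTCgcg
RPL24 (chr3:101686704-101686758, minus strand): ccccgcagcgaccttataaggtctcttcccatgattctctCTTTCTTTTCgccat
RPL35A (chr3:197950150-197950204, plus strand): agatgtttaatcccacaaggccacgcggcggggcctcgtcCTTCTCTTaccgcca
RPL39 (chrX:119791616-119791670, minus strand): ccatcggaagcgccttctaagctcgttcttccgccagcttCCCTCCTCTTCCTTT
RPL41 (chr12:56116593-56116647, plus strand): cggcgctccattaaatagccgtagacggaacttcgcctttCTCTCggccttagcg
RPL22 (chr1:6199581-6199635, minus strand): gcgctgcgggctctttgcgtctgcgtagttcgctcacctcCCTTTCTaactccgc
RPL22L1 (chr3:170870181-170870235, minus strand): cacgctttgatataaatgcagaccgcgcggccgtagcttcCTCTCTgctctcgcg

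All 12 start with C, and the run spans from 5 bases in RPL41 to 19 bases in RPL39, whose run goes past the stretch shown. Other genes named below, such as RPL9, RPL17 and RPS28, have no such run at their annotated start and are not shown. Among the 61 genes, 48 (78.69%) had an annotated start at C and 45 (73.77%) had a C followed by pyrimidines to a run of at least 5 bases. Over all 27305 genes of the same RefSeq table, 18% had a C start and 5.14% had such a run. Counted by start, the run was found in 45 of 76 annotated starts of the 61 genes (59.21%) and in 4.07% of all starts. The run is thus a shared feature that the choice by symbol did not use, while it describes annotated starts and not starts measured in these cells. In NeoT against A10 the 45 genes with the run had a median log2 fold change of 0.70 (0.03 to 1.55) and the 16 genes without it 0.63 (0.40 to 1.11), and whether these differ was not tested.

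Letter motifs were also counted on both strands in the 300 bases from 250 before to 50 after the start. CCGGAAG, the core recognised by ETS factors, occurred in 36.07% of the 61 genes and in 12.16% of all genes, and the GC box GGGCGG in 57.38% and 48.3%. CACGTG, the E-box that MYC and MAX bind, occurred in 6.56% of the 61 genes and in 8.77% of all genes. TATAAA occurred in 8.2% and 13.99%, and AAGATGG, a core of YY1 sites, in 13.11% and 7.11%. The end of CCGGAAG matches the start of AAGATGG, and the end of AAGATGG the start of GGGCGG, so 1 stretch can count for more than 1 motif, and a match or its absence describes only this window.

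Library totals ran from 18032399 to 35730423 counts, and each of the 76 genes had between 1732 and 181093 counts in every library, so counting error was small for all of them. T1 replicate 1 held 7.76% cytoplasmic ribosomal RNA, against 0.954% to 2.18% in the other 11 libraries, and NeoT replicate 3 agreed least with its fellow replicates. Over the 76 genes the lowest correlation of log2 CPM within a line (Pearson's r) was 0.956 in NeoT, 0.992 in T1, 0.989 in CA1 and 0.980 in A10. Epithelial markers went against an epithelial identity in NeoT. Of 7 markers (KRT5, KRT14, KRT8, KRT18, TP63, CDH1 and EPCAM) 5 fell and 1, KRT8, rose in NeoT against A10, and their summed level was 785.6 to 905.8 CPM in NeoT, 5375 to 5648 in T1, 7553 to 8258 in CA1 and 4516 to 4886 in A10. TP63 had 0 counts in NeoT, CDH1 (E-cadherin) averaged 0.691 ± 0.452 CPM there, against 312.7 ± 16.3 CPM in A10, and VIM, a mesenchymal filament, stood at 2235 ± 23.3, 94.5 ± 2.57, 364.5 ± 14.6 and 761.9 ± 21.9 CPM in NeoT, T1, CA1 and A10. HRAS stood at 239.4 ± 21.7 CPM in NeoT, 158.2 ± 11.9 in T1, 301.9 ± 11.9 in CA1 and 64.5 ± 4.59 in A10 (SD, n = 3 each). The part of this difference between the lines in the results below was not tested. In these bulk samples, fewer cells with a high level and less RNA per cell cannot be told apart.

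The 76 genes took up more of the RNA in NeoT than in any other line. They held 12.5%, 11% and 10.4% of all counts in the 3 NeoT libraries, 7.66%, 7.94% and 7.93% in T1, 7.53%, 7.49% and 7.81% in CA1 and 7.45%, 7.08% and 7.73% in A10. The NeoT libraries all lay above the other 9, whose ranges overlapped between lines. Line means were 11.3% ± 1.07 in NeoT, 7.84% ± 0.163 in T1, 7.61% ± 0.173 in CA1 and 7.42% ± 0.325 in A10 (SD, n = 3 each). Leaving out ribosomal RNA rows gave 12.7%, 11.2% and 10.5% in NeoT, 8.30%, 8.08% and 8.10% in T1, 7.60%, 7.57% and 7.92% in CA1 and 7.59%, 7.23% and 7.89% in A10. On that measure the T1 libraries all lay above the CA1 and the A10 libraries.

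**Figure D1:**
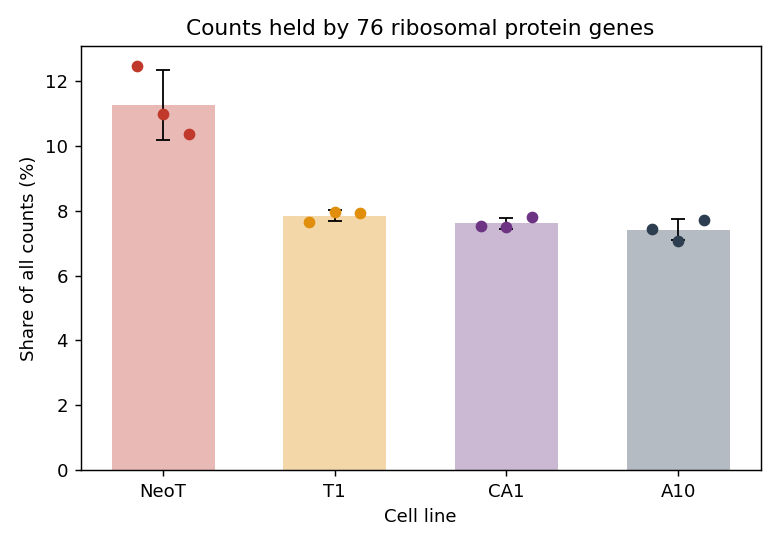
Share of all counts (%) held by the 76 ribosomal protein genes in each library of the 4 cell lines, where points are libraries, bars are means and error bars are SD (n = 3). The NeoT libraries sit between 10.4% and 12.5%, and the other 9 between 7.08% and 7.94%.

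Both subunits showed similar median fold changes. Counts of the 30 small-subunit genes divided by those of the 46 large-subunit genes gave 0.581 ± 0.018 in NeoT, 0.577 ± 0.008 in T1, 0.577 ± 0.011 in CA1 and 0.557 ± 0.006 in A10 (SD, n = 3 each). The A10 libraries (0.551 to 0.563) all lay below those of T1 (0.570 to 0.586) and CA1 (0.566 to 0.589). They overlapped NeoT, where replicate 2 gave 0.560. In NeoT against A10 the median log2 fold change was 0.71 for the small subunit, with 28 of 30 genes higher, and 0.67 for the large subunit, with 39 of 46 higher. The medians of the small and large subunit were 0.04 and 0.08 in T1 against A10, 0.21 and 0.21 in CA1 against A10, -0.69 and -0.62 in T1 against NeoT, and 0.16 and 0.11 in CA1 against T1.

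Levels are CPM (counts scaled to a common library size by the trimmed mean of M values, TMM), and each gene was tested with edgeR's quasi-likelihood test with Benjamini-Hochberg adjustment over all 14417 genes, called at an adjusted p under 0.05. These p-values measure the spread between 3 cultures of a line. All 3 comparisons with A10 share the same A10 libraries, and the consecutive steps share T1 or NeoT libraries with them. Per kilobase of median transcript length, levels in A10 ran from 172.4 CPM for RPS29 to 3307 CPM for RPLP1, and in NeoT from 230.8 CPM for RPS29 to 6368 CPM for RPL13A.

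Among the 4 lines together, 70 of the 76 genes differed, and so did 89.8% of all tested genes, so this count says little about ribosomal protein genes in particular. The 6 for which no difference was called were RPL8, RPL27A, RPL36, RPL39, RPL41 and RPS29.

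In NeoT against A10, 67 of the 76 genes rose and none fell by this test, against a background of 33.7% of all tested genes higher and 36.7% lower (70.4% in either direction). DESeq2 and limma-voom also called 0 falls, 0 falls had an unadjusted edgeR p under 0.05, and 75 of the 76 fold changes were positive. The median log2 fold change was 0.68 (1.60-fold), while the median over all tested genes was -0.04. Fold changes of the 76 genes were close together: their interquartile range was 0.33 on the log2 scale, against 1.42 over all tested genes. Each of the 76 had at least 1732 counts in every library, and other genes of that level were not compared separately. Rises of at least 2-fold were called for 13 of the 76 genes, and the share of all tested genes at that fold was not counted. The upper quartile of log2 fold changes was 0.87 over the 76 and 0.64 over all tested genes. Without NeoT replicate 3, 69 of the 76 rose with a median of 0.78.

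RPS19, a small-subunit protein needed to mature the small subunit's rRNA and the gene most often mutated in Diamond-Blackfan anaemia, rose most. Its level was 3238, 2822 and 2580 CPM in NeoT, 1874, 1768 and 1883 in T1, 1245, 1272 and 1488 in CA1 and 903.1, 970 and 1069 in A10. The 4 lines did not overlap and stood in the order NeoT, T1, CA1, A10. Its log2 fold change against A10 was 1.55 ± 0.09 (SE) in NeoT, 0.91 ± 0.09 in T1 and 0.45 ± 0.08 in CA1, with edgeR adjusted p of 1.59e-11, 5.38e-08 and 0.000138.

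RPL18, a large-subunit protein, stood at 2302, 2132 and 1789 CPM in NeoT and 712.4, 788.3 and 774.2 CPM in A10, a log2 fold change of 1.45 ± 0.08 (edgeR adjusted p = 1.13e-11). RPL13A, known also for a role in silencing translation of inflammatory mRNAs, stood at 7898, 6770 and 7101 CPM in NeoT and 2535, 2621 and 2876 CPM in A10 (1.44 ± 0.07, edgeR adjusted p = 7.11e-13). RPS16, whose tail reaches the tRNA in the decoding region, stood at 2515, 2080 and 1952 CPM in NeoT and 748.3, 815.8 and 910.9 CPM in A10 (1.40 ± 0.09, edgeR adjusted p = 3.38e-10). In all 3 genes every NeoT library lay at more than 2 times the highest A10 library, and all 3 are encoded on the long arm of chromosome 19.

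The heat map of 73 of the genes shows the NeoT libraries above A10 over nearly all rows. NeoT replicate 1 was the highest of the 3 NeoT libraries and replicate 3 the lowest in summed level, at 135240, 116300 and 108430 CPM for replicates 1 to 3. T1 summed to 78900, 76450 and 76267 CPM, CA1 to 78305, 79254 and 82762 CPM and A10 to 66867, 64469 and 70779 CPM. The summed levels of NeoT, of T1 and CA1, and of A10 did not overlap, while those of T1 and CA1 overlapped each other.

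**Figure D2:**
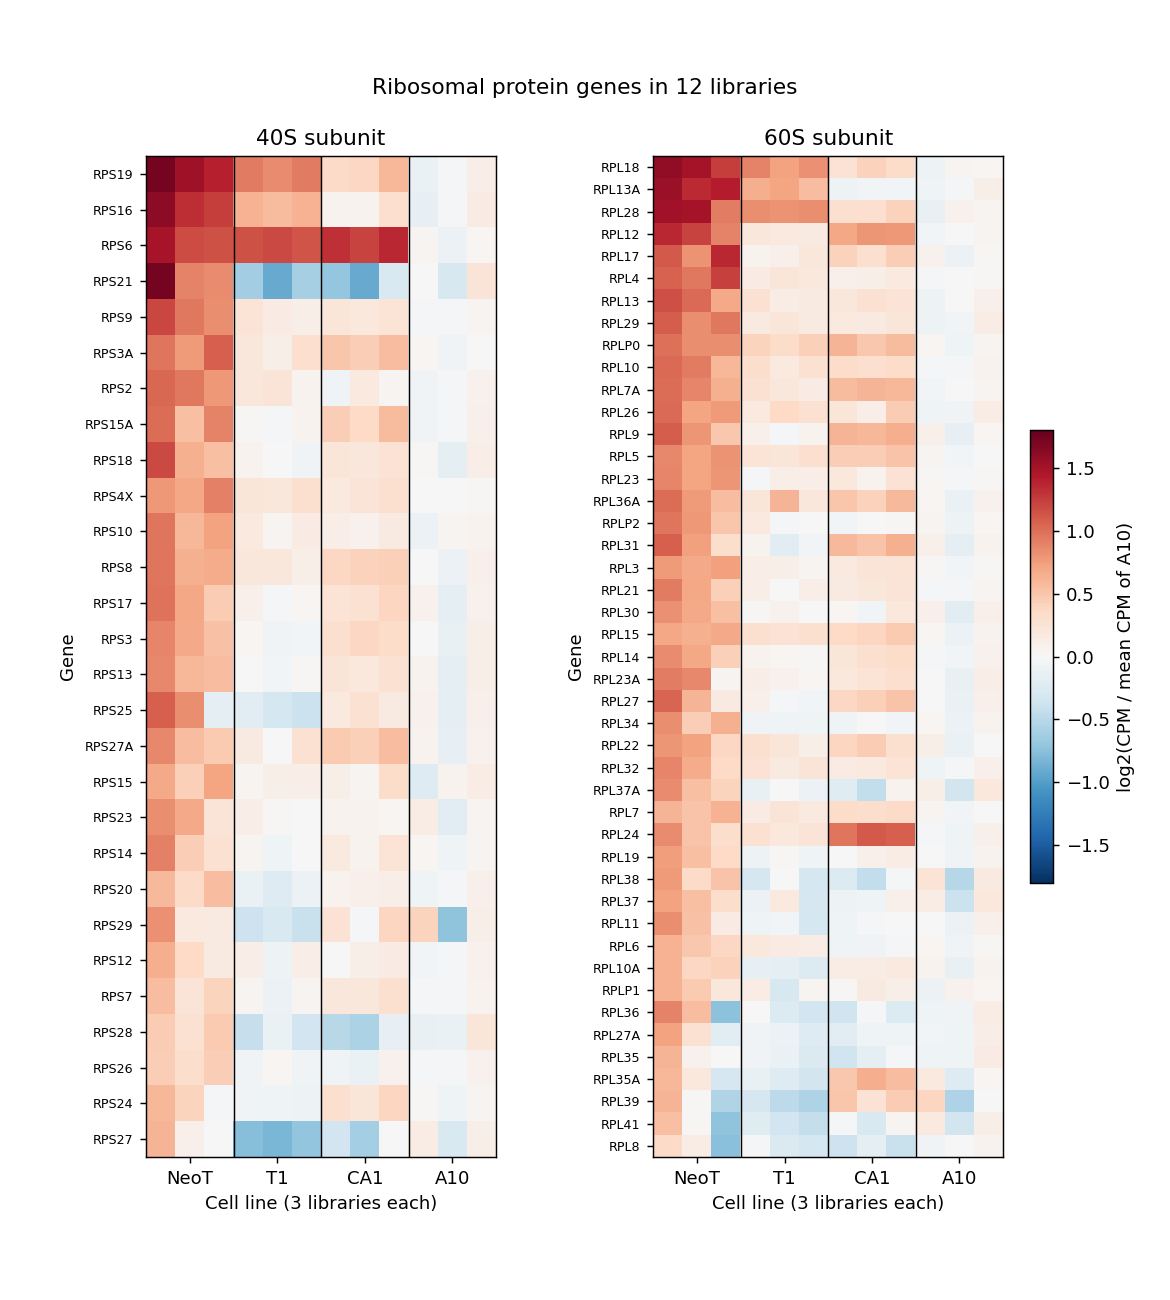
Log2 ratio of each gene's CPM to its mean CPM in A10 for 28 small-subunit (left) and 45 large-subunit genes (right), in 3 libraries of each of NeoT, T1, CA1 and A10 from left to right. Genes are ordered by their NeoT fold change, and RPS6 is red in NeoT, T1 and CA1 alike, RPL24 most strongly in CA1, and RPS27 and RPS21 blue in T1.

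The 9 genes that missed the test in NeoT against A10 were RPL8, RPL27A, RPL35, RPL35A, RPL36, RPL39, RPL41, RPS27 and RPS29. As a group their fold changes were less precise: their median SE was 0.24 on the log2 scale, against 0.09 for the 67 genes that rose. The NeoT libraries disagreed in them. In each of the 9 genes NeoT replicate 1 lay above every A10 library, and NeoT replicate 3 lay below the highest A10 library. Several encode very short mRNAs, while RPL8 and RPL35A had median transcript lengths of 990 and 1234 nt. By GENCODE v29 the median transcript length was 584 nt over the 9 genes and 764 nt over the 67, and across the 76 genes length and SE had a Spearman's rho of -0.485, given as a description. Whether transcript length played a part in the missed calls was not tested.

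RPL8, which sits near the peptidyl transferase centre, had the smallest range of line means. It stood at 2323, 1996 and 1088 CPM in NeoT, 1800, 1530 and 1463 in T1, 1405, 1633 and 1378 in CA1 and 1755, 1810 and 1915 in A10, so the NeoT libraries lay on either side of A10. Its log2 fold change in NeoT was -0.02 ± 0.24 (edgeR adjusted p = 0.949), and without NeoT replicate 3 it was 0.24 (edgeR adjusted p = 0.0449), a call with the other sign that rests on leaving out that library. RPL41, the shortest ribosomal protein, stood at 782.1, 547.3 and 325.9 CPM in NeoT, 465, 423.1 and 399.3 in T1, 526.6, 448.2 and 559.5 in CA1 and 608.9, 429.9 and 580.4 in A10. All 4 lines overlapped with at least 1 other line, and NeoT spanned the widest range.

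RPS7, RPS12 and RPS24 completed the 5 genes with the smallest range of line means, yet each rose in NeoT. RPS7, another MDM2-binding protein, stood at 917.8, 738.5 and 828.5 CPM in NeoT and 614.5, 611.6 and 656 CPM in A10 (log2 fold change 0.40 ± 0.07, edgeR adjusted p = 7e-05). RPS12 stood at 1096, 894.1 and 777.6 CPM in NeoT and 676.7, 679 and 736.1 CPM in A10 (0.40 ± 0.10, edgeR adjusted p = 0.00123). RPS24 had 1164, 1009 and 752.6 CPM in NeoT and 779.6, 726.9 and 796.4 CPM in A10, which overlap, with a log2 fold change of 0.35 ± 0.11 (edgeR adjusted p = 0.0115) that lost its call without NeoT replicate 1 or 2 or A10 replicate 2.

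T1 stood close to A10. Of the 76 genes 20 (26.3%) rose and 2 (2.63%) fell, against a background of 26% of tested genes higher and 25.9% lower (51.9% in either direction). The share that rose was thus that of any gene. The median log2 fold change was 0.05, against -0.01 over all tested genes, and 48 of the 76 were positive. Without T1 replicate 1, 15 rose and 2 fell. With libraries scaled by their totals alone 9 rose and 6 fell with a median of -0.07, so the direction of the median depends on the scaling. Under that scaling 2899 of all 14417 tested genes were called higher and 4729 lower. With single libraries left out, falls numbered from 1 to 5. RPL10A, a large-subunit protein, and RPS27 were the 2 that fell. RPL10A stood at 612.7, 603.9 and 574 CPM in T1 and 712.7, 619.7 and 707 CPM in A10, a log2 fold change of -0.19 ± 0.07 (edgeR adjusted p = 0.0324) whose call was lost without T1 replicate 2 or 3 or A10 replicate 1 or 3.

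The largest rise in T1 was that of RPS6, the small-subunit protein phosphorylated by S6 kinase downstream of mTORC1. Its level was 3684, 2962 and 2899 CPM in NeoT, 2899, 2992 and 2887 in T1, 3264, 3066 and 3376 in CA1 and 1367, 1226 and 1354 in A10. NeoT, T1 and CA1 lay at about the same height, all of their libraries more than 2 times above every A10 library. The log2 fold change against A10 was 1.27 ± 0.08 in NeoT, 1.15 ± 0.08 in T1 and 1.30 ± 0.08 in CA1 (edgeR adjusted p = 4.88e-11, 4.93e-10 and 3.97e-11). No difference was called for RPS6 between T1 and NeoT (-0.12 ± 0.08, edgeR adjusted p = 0.173) or CA1 and T1 (0.14 ± 0.08, edgeR adjusted p = 0.111), although T1 and NeoT passed the test without NeoT replicate 3.

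After RPS6, the 4 largest rises in T1 were those of RPS19, RPL28, RPL18 and RPL13A, all from chromosome 19. RPL28 stood at 2776, 2743 and 1834 CPM in NeoT, 1740, 1697 and 1729 in T1, 1184, 1197 and 1294 in CA1 and 884, 1024 and 1011 in A10. Its log2 fold change against A10 was 0.82 ± 0.12 in T1 (edgeR adjusted p = 8.23e-05) and 0.33 ± 0.12 in CA1 (edgeR adjusted p = 0.0274). RPL18 stood at 1413, 1258 and 1345 CPM in T1 and 906.3, 1008 and 951.5 CPM in CA1, with log2 fold changes against A10 of 0.82 ± 0.08 and 0.33 ± 0.08 (edgeR adjusted p = 7.17e-08 and 0.00106). RPL13A stood at 4212, 4362 and 3929 CPM in T1 and 2514, 2598 and 2586 CPM in CA1. T1 lay 0.64 ± 0.07 above A10 on the log2 scale (edgeR adjusted p = 1.37e-07), while CA1 differed by -0.06 ± 0.06 (edgeR adjusted p = 0.409).

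RPS27, a small-subunit protein also known as metallopanstimulin-1, was lowest in T1. It stood at 741, 514 and 480.7 CPM in NeoT, 284.6, 274.9 and 294.6 in T1, 382.5, 317.2 and 479.8 in CA1 and 529.2, 401.2 and 522.4 in A10. All T1 libraries lay below all others, and A10 overlapped with both NeoT and CA1. T1 differed from A10 by -0.77 ± 0.19 (edgeR adjusted p = 0.00709) and from NeoT by -1.02 ± 0.19 (edgeR adjusted p = 0.000857). RPS21, a small-subunit protein, had the largest step of all: 1145, 641.8 and 622.7 CPM in NeoT, 223.2, 185.1 and 227.7 in T1, 213.6, 184.6 and 285.7 in CA1 and 346.8, 283.6 and 407 in A10. It rose in NeoT against A10 by 1.22 ± 0.27 (edgeR adjusted p = 0.00303) and T1 lay 1.92 ± 0.28 below NeoT (edgeR adjusted p = 0.000207). Its values against A10 were -0.71 ± 0.27 in T1 (edgeR adjusted p = 0.0544) and -0.60 ± 0.27 in CA1 (edgeR adjusted p = 0.0733), neither of them called. All T1 libraries still lay below all A10 libraries in RPS21, while CA1 overlapped A10.

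**Figure D3:**
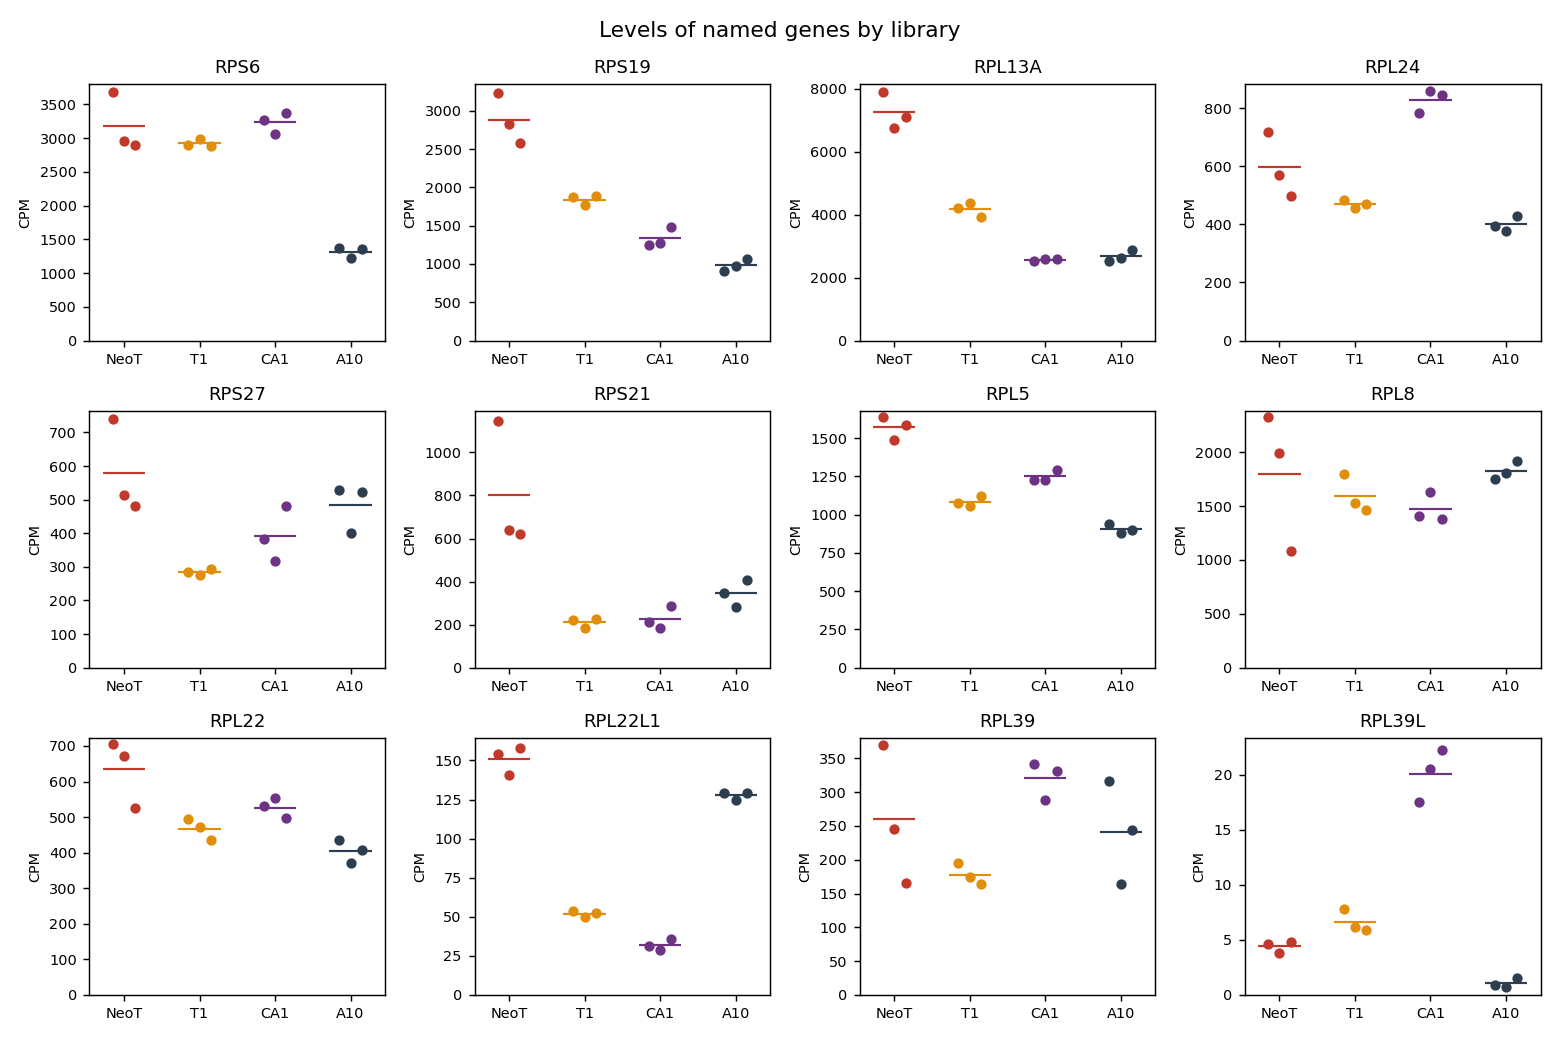
CPM by library (points) with the line mean (bar) for 10 ribosomal protein genes and the paralogs RPL22L1 and RPL39L in NeoT, T1, CA1 and A10, each panel on its own axis from 0. RPS6 is high in NeoT, T1 and CA1, RPL24 highest in CA1 at 783.2 to 860.8 CPM, and RPL22L1 low in T1 and CA1 where RPL22 is not.

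T1 lay below NeoT throughout. Of the 76 genes 69 fell and none rose, against a background of 32.4% of tested genes lower and 35% higher (67.4% in either direction), and all 76 fold changes were negative with a median of -0.64 on the log2 scale. DESeq2 and limma-voom called 0 rises, and 0 had an unadjusted edgeR p under 0.05. Without NeoT replicate 3 all 76 fell, with a median of -0.72. RPS6, RPL8, RPL27A, RPL35A, RPL36, RPL39 and RPL41 were the 7 without a call. After RPS21 and RPS27 the largest falls whose replicates did not overlap were those of RPL12, RPL17 and RPS25.

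RPL12, a protein at the base of the stalk where elongation factors dock, stood at 2552, 2321 and 1847 CPM in NeoT, 1152, 1128 and 1116 in T1, 1612, 1731 and 1715 in CA1 and 960.3, 1001 and 1029 in A10. The 4 lines did not overlap, and CA1 lay between NeoT and T1. T1 differed from NeoT by -0.98 ± 0.08 (edgeR adjusted p = 7.47e-09). RPL17, near the exit of the peptide tunnel, stood at 1641, 1339 and 1948 CPM in NeoT and 800.2, 811.7 and 882 CPM in T1 (-0.98 ± 0.10, edgeR adjusted p = 2.3e-07). RPS25, which many viral internal ribosome entry sites need, stood at 878.4, 747.5 and 371.2 CPM in NeoT and 365.5, 335 and 321.2 CPM in T1 (-0.97 ± 0.26, edgeR adjusted p = 0.00917). NeoT replicate 3 lay close to the T1 libraries in that gene.

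CA1 stood modestly above A10. Of the 76 genes 36 rose and 1 fell, against a background of 34.4% higher and 36.5% lower (70.9% in either direction), with a median log2 fold change of 0.21 (1.16-fold) against -0.02 over all tested genes, and 58 of 76 were positive. Scaling by library totals alone gave 15 rises and 12 falls among the 76, and its median of -0.0033 had the other sign. Over all 14417 tested genes it gave 3810 rises and 6477 falls. That scaling moved the median of all tested genes in CA1 against A10 to -0.24, in T1 against A10 to -0.12 and in NeoT against A10 to -0.27, and relative to that shift the 76 genes had medians of 0.23, 0.06 and 0.72, as in the TMM fit. The sign in CA1 and T1 thus depends on what the genes are compared with, and that in NeoT does not.

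RPL24, whose reduced dose slows Myc-driven lymphoma in mice, rose most in CA1 after RPS6. It stood at 719.6, 570.1 and 498.8 CPM in NeoT, 485.4, 458.2 and 471.1 in T1, 783.2, 860.8 and 845.4 in CA1 and 396, 377.8 and 427.8 in A10. CA1 lay above all other libraries. The log2 fold change against A10 was 0.57 ± 0.10 in NeoT (edgeR adjusted p = 4.98e-05), 0.24 ± 0.10 in T1 (edgeR adjusted p = 0.0514, not called) and 1.05 ± 0.10 in CA1 (edgeR adjusted p = 3.97e-08). RPL12 rose by 0.76 ± 0.08 in CA1 against A10 (edgeR adjusted p = 2.25e-07).

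RPL9 and RPL7A followed. RPL9, a large-subunit protein, stood at 1178, 967.1 and 777.9 CPM in NeoT, 591.9, 542.5 and 579.6 in T1, 852.1, 842.3 and 877.5 in CA1 and 593.6, 502.9 and 569.8 in A10. CA1 exceeded A10 by 0.63 ± 0.11 (edgeR adjusted p = 0.000105), and T1 overlapped A10. RPL7A stood at 2799, 2562 and 2162 CPM in NeoT, 1688, 1608 and 1537 in T1, 2067, 2123 and 2105 in CA1 and 1343, 1390 and 1443 in A10, so the 4 lines did not overlap, and CA1 against A10 gave 0.59 ± 0.07 (edgeR adjusted p = 9.51e-07). RPS28, needed in maturing small-subunit rRNA, was the single gene that fell: 406.7, 386.3 and 518.7 CPM in CA1 and 525.6, 532 and 669.6 CPM in A10 (-0.40 ± 0.12, edgeR adjusted p = 0.00925). That call was lost in a fit to the CA1 and A10 libraries alone, and falls numbered 2 or 3 without NeoT replicate 1, NeoT replicate 3, CA1 replicate 3 or A10 replicate 2.

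CA1 against T1 split the genes. Of the 76, 25 rose and 7 fell, against a background of 30.4% higher and 31.9% lower (62.2% in either direction), with a median log2 fold change of 0.12. Without CA1 replicate 3, 16 rose, and without T1 replicate 1, 19 did. Those that fell included RPL13A, RPL28, RPL18, RPS19 and RPS16, which lie on chromosome 19, and RPL6, which does not. RPL13A showed the largest fall at -0.70 ± 0.07 (edgeR adjusted p = 3.41e-08).

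The largest rises in CA1 against T1 were those of RPL39, RPL24, RPL35A, RPL31 and RPL9. RPL35A, a large-subunit protein also mutated in Diamond-Blackfan anaemia, stood at 548.4, 414.5 and 292.2 CPM in NeoT, 331, 307.9 and 286.4 in T1, 505.5, 571.3 and 532.8 in CA1 and 406.8, 307.6 and 371.3 in A10. CA1 exceeded T1 by 0.80 ± 0.19 (edgeR adjusted p = 0.00479) and A10 by 0.57 ± 0.19 (edgeR adjusted p = 0.0232). RPL31, at the tunnel exit, stood at 559.7, 533.7 and 582.9 CPM in CA1 and 389.7, 324.8 and 362.6 CPM in T1 (0.64 ± 0.15, edgeR adjusted p = 0.003). RPL39, a small protein lining the tunnel, gave 341.7, 288.4 and 330.7 CPM in CA1 and 195.2, 173.9 and 164.7 CPM in T1, a log2 fold change of 0.85 ± 0.30 (edgeR adjusted p = 0.0375). RPL39 lost that call when any single T1 or CA1 library was left out.

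The stalk genes, which form the arm that recruits elongation factors, were called in different lines. RPLP0, the base of the stalk, stood at 4996, 4481 and 4520 CPM in NeoT, 3334, 3183 and 3378 in T1, 3840, 3545 and 3753 in CA1 and 2583, 2378 and 2601 in A10. The lines did not overlap in RPLP0, and its log2 fold change against A10 was 0.89 ± 0.06 in NeoT, 0.39 ± 0.06 in T1 and 0.56 ± 0.06 in CA1 (edgeR adjusted p = 1.6e-10, 2.02e-05 and 1.09e-07). RPLP1 rose in NeoT by 0.44 ± 0.11 (edgeR adjusted p = 0.00191), with values of -0.02 ± 0.11 in T1 and 0.10 ± 0.11 in CA1 that were not called. RPLP2 rose in NeoT by 0.76 ± 0.09 (edgeR adjusted p = 5.68e-07), with uncalled values of 0.05 ± 0.09 in T1 and -0.00 ± 0.09 in CA1. RPLP0 is often used as a reference gene for quantitative PCR, and here it spanned all 4 lines without overlap.

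RPL5 and RPL11 are partners in the particle of 5S rRNA that binds MDM2. RPL5 stood at 1640, 1487 and 1588 CPM in NeoT, 1075, 1056 and 1120 in T1, 1227, 1229 and 1291 in CA1 and 937.2, 876.6 and 900.8 in A10. Its lines did not overlap, and its log2 fold change against A10 was 0.80 ± 0.06 in NeoT, 0.26 ± 0.06 in T1 and 0.47 ± 0.06 in CA1 (edgeR adjusted p = 3.54e-10, 0.000703 and 5.98e-07). RPL11 stood at 1092, 883.2 and 681.3 CPM in NeoT, 583.6, 594.5 and 492.9 in T1, 581.2, 599.6 and 619.2 in CA1 and 612.7, 573 and 657.2 in A10. It rose in NeoT by 0.53 ± 0.13 (edgeR adjusted p = 0.00328), with uncalled values of -0.14 ± 0.13 in T1 and -0.03 ± 0.13 in CA1. Whether RPL5 and RPL11 differ in their change was not tested.

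Several ribosomal proteins have a second gene, a paralog outside the 76, and in several pairs the paralog was called in another direction than its partner. Of 8 such paralogs 6 passed the filter, and RPL3L and RPL10L did not. In NeoT against A10 3 of the 6 rose and 1 fell, in T1 2 rose and 2 fell, and in CA1 3 rose and 3 fell. RPL22L1, whose protein can replace that of RPL22 in the ribosome, stood at 153.8, 140.9 and 157.9 CPM in NeoT, 53.5, 49.6 and 52.5 in T1, 31.0, 28.6 and 35.9 in CA1 and 129.3, 124.5 and 129.5 in A10. The 4 lines did not overlap, with CA1 lowest. RPL22L1 differed from A10 by 0.24 ± 0.08 in NeoT, -1.30 ± 0.08 in T1 and -2.0 ± 0.08 in CA1 (edgeR adjusted p = 0.0103, 1.18e-10 and 1.71e-13).

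RPL22 itself stood at 705.8, 672 and 524.9 CPM in NeoT, 494.8, 471.2 and 435.2 in T1, 530.2, 553.7 and 496.9 in CA1 and 435.4, 371.1 and 408.3 in A10. It rose by 0.65 ± 0.09 in NeoT and 0.38 ± 0.09 in CA1 (edgeR adjusted p = 6.85e-06 and 0.00143), and was not called in T1 at 0.21 ± 0.09 (edgeR adjusted p = 0.0725). In CA1, then, RPL22 was higher and RPL22L1 lower than in A10. RPL39L, a paralog of RPL39 known from testis and some tumours, stood at 4.58, 3.84 and 4.82 CPM in NeoT, 7.79, 6.20 and 5.89 in T1, 17.5, 20.5 and 22.3 in CA1 and 0.930, 0.736 and 1.52 in A10. RPL39L rose in all 3 lines, by 2.05 ± 0.23 in NeoT, 2.64 ± 0.23 in T1 and 4.24 ± 0.22 in CA1 (edgeR adjusted p = 3.07e-07, 1.28e-08 and 6.22e-12), while RPL39 was called in none of them.

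The other paralogs also differed. RPS27L rose by 0.50 ± 0.10 in NeoT, 0.62 ± 0.10 in T1 and 1.04 ± 0.10 in CA1 (edgeR adjusted p = 0.000368, 6.42e-05 and 6.74e-08), while RPS27 fell in T1 and was uncalled in NeoT and CA1. RPL26L1 fell by 0.76 in NeoT, 0.49 in T1 and 0.39 in CA1 on the log2 scale (edgeR adjusted p = 5.96e-07, 0.000134 and 0.00086). RPL26 rose by 0.84 ± 0.09, 0.27 ± 0.09 and 0.28 ± 0.09 in the same lines (edgeR adjusted p = 4.35e-07, 0.0228 and 0.0143). RPL36AL was called in CA1 alone (0.39 ± 0.13, edgeR adjusted p = 0.0128), and RPL36A rose in NeoT by 0.79 ± 0.12, in T1 by 0.36 ± 0.12 and in CA1 by 0.50 ± 0.12 (edgeR adjusted p = 2.8e-05, 0.0195 and 0.00142). RPL7L1 fell in CA1 by 0.54 (edgeR adjusted p = 4.64e-06), and RPL7 rose in all 3 lines by 0.59 ± 0.05, 0.19 ± 0.05 and 0.33 ± 0.05 (edgeR adjusted p = 1.73e-08, 0.00659 and 2.9e-05). Paralogs share sequence, so reads could pass between partners. The rises of RPL26 and RPL36A in T1 and of RPL26 in CA1 were lost in several of the alternatives that left out a library.

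The 3 subunit genes with other names all rose in NeoT, with a median log2 fold change of 0.71. In T1 and in CA1 1 of them rose and 1 fell, with medians of -0.06 and 0.05, against 0.05 and 0.21 over the 76. RPSA, the laminin receptor subunit, rose by 0.71 ± 0.05 in NeoT (edgeR adjusted p = 1.11e-09) and fell by 0.16 in T1 (edgeR adjusted p = 0.0164), with 0.05 ± 0.05 in CA1. FAU, which makes eS30 fused to a ubiquitin-like protein, rose by 0.59 ± 0.07 in NeoT (edgeR adjusted p = 5.93e-07), and fell by 0.25 in CA1 (edgeR adjusted p = 0.00491). GNB2L1, the scaffold RACK1, rose by 0.87 ± 0.05, 0.29 ± 0.05 and 0.25 ± 0.05 in NeoT, T1 and CA1 (edgeR adjusted p = 3.22e-11, 0.00011 and 0.000265).

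Gene positions were taken from RefSeq (GRCh38.p14), where the 73 genes whose positions were used lie on 21 chromosomes, and each was set beside the median log2 fold change of the other tested genes within 5 Mb, which numbered 12 to 221. Across these 73 genes, the Pearson's r between a gene and its neighbours was 0.59 in NeoT, 0.74 in T1 and 0.60 in CA1, each against A10, and 0.64 in CA1 against T1, while in T1 against NeoT it was 0.33. Spearman's rho was lower, at 0.44 in NeoT, 0.34 in T1 and 0.40 in CA1 against A10, 0.37 in CA1 against T1 and 0.12 in T1 against NeoT. Without RPS6 and 6 genes of the distal part of chromosome 19, r over the other 66 was 0.275, 0.39 and 0.50 in NeoT, T1 and CA1 against A10, 0.46 in CA1 against T1 and 0.33 in T1 against NeoT. These are descriptions, since neighbours of nearby genes overlap and all points share libraries. DNA copy number was not measured in these files, so its part was not tested.

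The 6 genes of distal chromosome 19 were RPL13A, RPL18, RPL28, RPS9, RPS16 and RPS19. In NeoT against A10 all 6 rose with a median log2 fold change of 1.42, while the medians of their neighbours ran from 0.51 to 0.67. In T1 against A10 5 of the 6 rose with a median of 0.73, and neighbours had medians from 0.48 to 0.58. In CA1 against A10 4 rose with a median of 0.28 (neighbours -0.09 to 0.08), and in CA1 against T1 5 fell with a median of -0.48 (neighbours -0.60 to -0.38). The other 67 genes had medians of 0.67 in NeoT, 0.04 in T1 and 0.22 in CA1 against A10. Nearer the other end of the chromosome, RPL36, RPS15 and RPS28 had medians of 0.40, -0.19 and -0.21.

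RPS6 on chromosome 9 (chr9:19375715-19380236) rose by 1.27, 1.15 and 1.30 in NeoT, T1 and CA1, and the median of its 19 neighbours was 1.03, 1.18 and 1.08. RPS27 (chr1:153990762-153992155) had values of 0.26, -0.77 and -0.30, where its neighbours had -0.52, -0.67 and -0.72. On the long arm of chromosome 3, RPL24 (chr3:101681091-101686718) and RPL35A (chr3:197950190-197956610) rose in CA1 by 1.05 and 0.57, and their neighbours had medians of 0.56 and 0.70. RPS21 (chr20:62387103-62388520) had 1.22, -0.71 and -0.60, and its neighbours 0.51, -0.24 and -0.24. In NeoT all 73 genes lay above the median of their neighbours, by a median of 0.71 on the log2 scale. In T1 42 of the 73 did (median difference 0.08) and in CA1 56 did (0.22), as the plot of genes against neighbours shows.

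**Figure D4:**
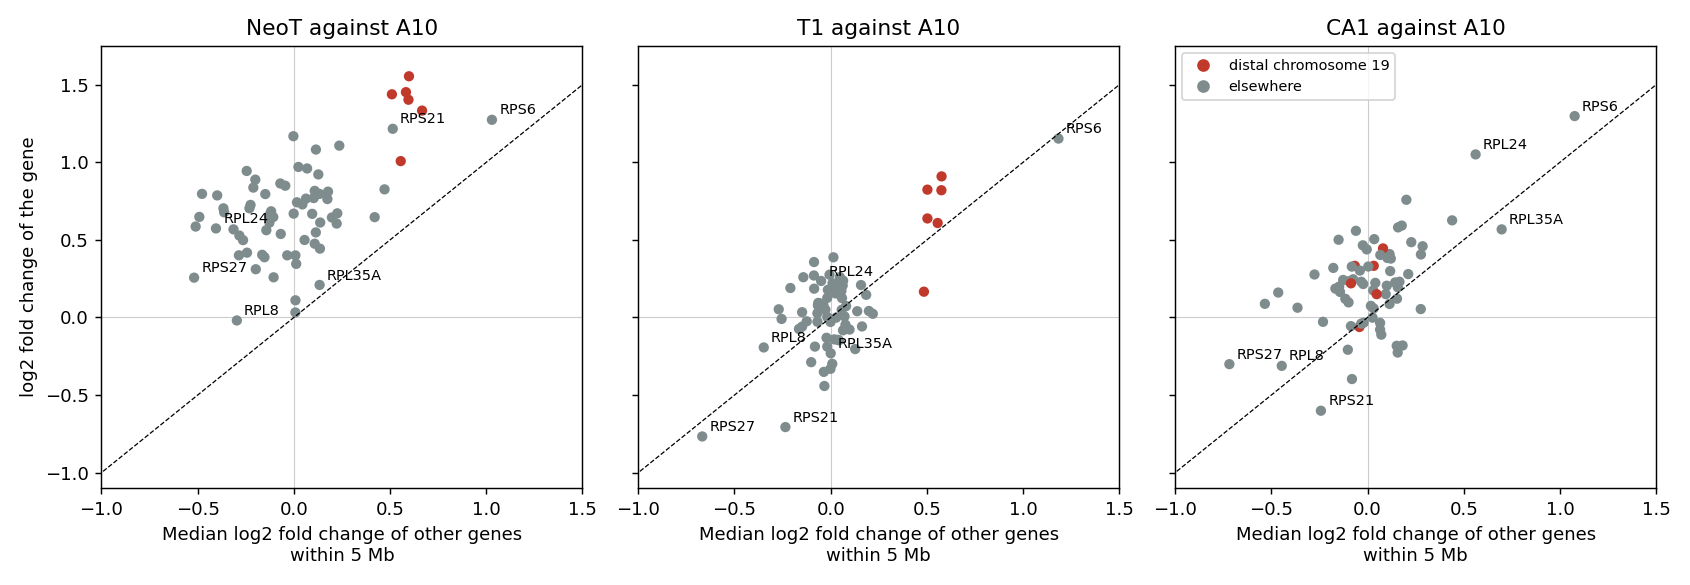
Log2 fold change of 73 ribosomal protein genes (vertical axis) against the median log2 fold change of the other tested genes within 5 Mb (horizontal axis) for NeoT, T1 and CA1 against A10. Red points are 6 genes of distal chromosome 19, the dashed line marks equal values, and all 73 points lie above that line in NeoT, 42 in T1 and 56 in CA1.

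Genes that work with ribosomal proteins were grouped in lists. Their counts stand beside the shares of all tested genes called higher and lower, which were 33.7% and 36.7% in NeoT, 26% and 25.9% in T1 and 34.4% and 36.5% in CA1, each against A10. A list of translation factors and other genes known for TOP sequences, such as HNRNPA1 and NAP1L1, also differed between lines. Of its 19 genes 17 rose and 1, HNRNPA1, fell in NeoT (median log2 fold change 0.66). In T1 7 rose and 4 fell (0.11), and in CA1 13 rose and 3 fell (0.37). RefSeq held starts for 12 of the 19 genes, and 11 of these had the pyrimidine run. EEF2, which moves the ribosome along the mRNA, rose by 1.23 ± 0.06 in NeoT, 0.61 ± 0.06 in T1 and 0.54 ± 0.06 in CA1 (edgeR adjusted p = 1.05e-12, 4.88e-08 and 1.21e-07). EIF4B, an S6 kinase substrate that helps unwind mRNA, stood at 1902, 1940 and 1964 CPM in NeoT, 967.2, 973.2 and 974.7 in T1, 1300, 1357 and 1324 in CA1 and 894.7, 876.8 and 897.2 in A10. It rose by 1.12 ± 0.05 in NeoT and 0.58 ± 0.05 in CA1 (edgeR adjusted p = 4.11e-13 and 5.6e-09).

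Host genes of small nucleolar RNAs, whose spliced transcripts are mostly noncoding and whose introns hold RNAs that guide rRNA modification, were called higher for the most part in NeoT and CA1. All 10 rose in NeoT (median log2 fold change 2.16), 4 rose and 1 fell in T1 (0.19), and 9 rose and 1 fell in CA1 (1.76). RefSeq held starts for 9 of the 10 genes, and 3 of these had the pyrimidine run. GAS5 stood at 605.7, 485.8 and 500.2 CPM in NeoT, 147.9, 134 and 149 in T1, 348.6, 376.3 and 381.5 in CA1 and 112.7, 111 and 116.8 in A10. It rose by 2.23 ± 0.08 in NeoT, 0.34 ± 0.08 in T1 and 1.70 ± 0.08 in CA1 (edgeR adjusted p = 2.31e-14, 0.00124 and 1e-12). SNHG1 rose by 2.69 ± 0.09 in NeoT and 1.95 ± 0.09 in CA1 (edgeR adjusted p = 1.54e-14 and 1.55e-12), and EPB41L4A-AS1 by 3.06 ± 0.10 and 2.01 ± 0.10 (edgeR adjusted p = 8.8e-15 and 3.5e-12). By list median the order of the lines was NeoT, CA1 and T1, as for the median fold change of the 76 ribosomal protein genes. By their share of counts without ribosomal RNA rows, T1 lay above CA1.

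Ribosome assembly factors were called in both directions, in NeoT at shares near those of all tested genes. Of 30, 9 rose and 12 fell in NeoT (median log2 fold change 0.01), 3 rose and 15 fell in T1 (-0.18), and 7 rose and 20 fell in CA1 (-0.51). GNL3 (nucleostemin) stood at 205.5, 194 and 204.1 CPM in NeoT and 99.9, 95.1 and 97.7 CPM in A10 (1.04 ± 0.06, edgeR adjusted p = 1.6e-11), and NOB1, the nuclease that finishes 18S rRNA, rose by 1.03 ± 0.06 in NeoT (edgeR adjusted p = 7.01e-11). NOP58, of the box C/D particle, fell by 1.32 in NeoT (edgeR adjusted p = 1.06e-10). In CA1 its partner NOP56 stood at 58.4, 56.3 and 65.5 CPM, against 141, 150 and 156.2 CPM in A10 (-1.31 ± 0.08, edgeR adjusted p = 2.13e-11). BOP1, a large-subunit assembly factor, fell in CA1 by 1.12 (edgeR adjusted p = 1.31e-10) and in T1 by 0.50 (edgeR adjusted p = 1.05e-05).

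RNA polymerase I genes were also called in both directions, with more falls than rises in T1 and CA1. The shares of all tested genes called lower there were 25.9% and 36.5%. Of 15, 6 rose and 4 fell in NeoT, 2 rose and 7 fell in T1, and 4 rose and 9 fell in CA1, with medians of -0.01, -0.15 and -0.69. TAF1D, a selectivity factor subunit whose gene also hosts small nucleolar RNAs, stood at 147.6, 154.9 and 164.4 CPM in NeoT, 28.8, 33.0 and 32.2 in T1, 129.2, 126.7 and 120 in CA1 and 33.0, 28.2 and 26.3 in A10. It rose by 2.41 ± 0.09 in NeoT and 2.10 ± 0.09 in CA1 (edgeR adjusted p = 2.4e-14 and 1.84e-13). TCOF1 (treacle) fell in CA1 by 1.21 and in T1 by 0.88 (edgeR adjusted p = 7.98e-11 and 1.23e-08).

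**Figure D5:**
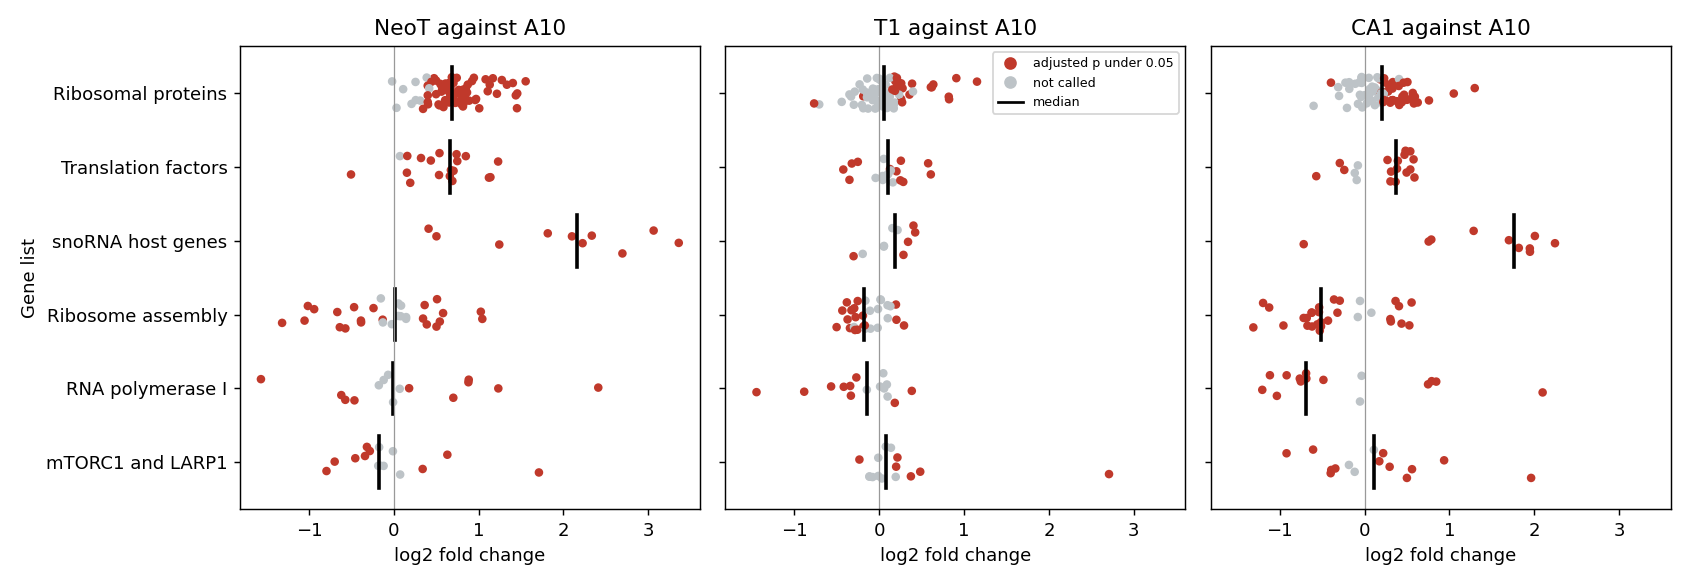
Log2 fold change of single genes (points, red where the edgeR adjusted p was under 0.05) and list medians (black bars) for the 76 ribosomal protein genes and 5 lists of partner genes, in NeoT, T1 and CA1 against A10. The list labelled translation factors also holds other TOP genes. It (medians 0.66, 0.11 and 0.37) and small nucleolar RNA hosts (2.16, 0.19 and 1.76) lie to the right in NeoT and CA1. Ribosome assembly factors lie to the left in CA1 at -0.51.

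The regulators of the TOP mRNAs were tested at the level of their own mRNA only. Of 15 mTORC1 and LARP genes, 3 rose and 6 fell in NeoT, 5 rose and 1 fell in T1, and 7 rose and 5 fell in CA1. DEPTOR, an inhibitor of mTOR, rose by 1.71 ± 0.25, 2.71 ± 0.24 and 1.96 ± 0.25 in NeoT, T1 and CA1 (edgeR adjusted p = 6.58e-06, 2.61e-08 and 1.11e-06). EIF4EBP1, a repressor of cap-dependent translation, fell by 0.34 in NeoT and rose by 0.37 ± 0.11 in T1 and 0.94 ± 0.11 in CA1 (edgeR adjusted p = 0.0121, 0.00886 and 8.86e-07).

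MYC, the transcription factor known for driving ribosome production, stood at 1119, 1143 and 938.3 CPM in NeoT, 399.1, 413.5 and 395.1 in T1, 242.1, 242.8 and 237.3 in CA1 and 389, 420.2 and 412.8 in A10. NeoT lay above all other lines, T1 and A10 overlapped, and CA1 lay below. MYC rose by 1.39 ± 0.07 in NeoT (edgeR adjusted p = 2.29e-12) and fell by 0.76 in CA1 (edgeR adjusted p = 1.31e-08). Its part in the levels of the ribosomal protein genes was not tested. Of the 9 tested genes of the MYC network, 5 rose and 2 fell in NeoT, 3 rose and 4 fell in T1, and 4 rose and 4 fell in CA1.

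Among 9 ribosomal protein chaperones and genes of the MDM2 arm, 4 rose and 4 fell in NeoT, 3 rose and 2 fell in T1, and 2 rose and 5 fell in CA1. CDKN1A (p21), an inhibitor of cyclin-dependent kinases, stood at 834.1, 807.5 and 660.5 CPM in NeoT, 835.1, 795.5 and 792 in T1, 202.5, 220.2 and 205.7 in CA1 and 376.4, 389.9 and 402.6 in A10. It rose in NeoT by 0.98 ± 0.07 and in T1 by 1.05 ± 0.07, and fell in CA1 by 0.90 (edgeR adjusted p = 1.14e-09, 1.01e-09 and 4.55e-09). GRWD1, the counterpart of the yeast chaperone of Rpl3, fell by 1.29 in CA1 (edgeR adjusted p = 6.5e-12).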

How the data were processed

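Per the labels' protocols, DNase I-treated RNA was made into libraries with an NEBNext Ultra RNA kit. The authors deposited expected counts (estimated counts per gene), which the table's name credits to Salmon; GRCh38 and limma are named in the submitters' processing notes without a role, and versions, annotation and strand setting are not given in the sources used here. Of the values, 10.1% were not whole, and they were rounded.

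All 12 libraries entered 1 edgeR 4.0.16 quasi-likelihood fit (R 4.3.3; filterByExpr on line, TMM, robust dispersions, a mean per line), adjusted by Benjamini-Hochberg over 14417 genes. SE is the log2 fold change divided by the square root of F. The members, lists and tests were chosen with earlier results of these data known. In each comparison the text names up to 5 called members per direction, ranked by size, whose replicates do not overlap, the 5 with the smallest range, the stalk genes, RPL5, RPL11, RPS6, members with a paralog, and up to 4 leading genes per list. Alternatives were RLE, upper-quartile and total scaling, TMM without the members, no filter, 1 CPM in 3 libraries, DESeq2 1.42.0, limma-voom (limma 3.58.1), the 6 libraries compared, a replicate block, pseudogene counts added, rRNA rows removed, and libraries left out. The edgeR script was tested on simulated data.

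Pseudogene rows held at most 2.79% of a member's counts (RPL23A). Reads of RPL36A, RPS10 and RPL17 can be shared with readthrough rows, so those values are uncertain. Over all tested genes, same-numbered replicates of different lines did not deviate together (r from -0.069 to 0.088 over 18 pairs). Over the 76 genes r ran from -0.30 to 0.66 in those pairs and from -0.70 to 0.54 in differently numbered ones, and the 3 same-numbered pairs of CA1 and A10 gave 0.57, 0.53 and 0.66. A few genes that entered the fit and the counts of the 76 are not reported here, and positions were used for 73. Positions matched 12799 genes by symbol and 1027 by synonym, with 591 unmatched. Transcript length is the median of GENCODE v29 basic protein-coding transcripts. Python 3.11.15, pandas 2.3.3 and matplotlib 3.10.9 were used.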

Additional observations from a re-analysis of the deposited data

How the results depend on the processing

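Of 113 log2 fold changes of named members refitted under 25 alternatives (2825 values), 2726 kept their side of the threshold (some uncalled values near 0 changed sign), 63 lost their call and 34 gained one. The remaining 2 belong to RPL8 in NeoT against A10, which ran from -0.25 with library totals alone to 0.25 without NeoT replicate 3 and T1 replicate 1, and, with single libraries left out, from -0.2465 without NeoT replicate 1 to 0.2404 without NeoT replicate 3. Scaling by library totals alone gave medians of 0.45 in NeoT, -0.065 in T1 and -0.0033 in CA1 against A10, and 0.0235 in CA1 against T1. Under it 9 members rose and 6 fell in T1, 15 rose and 12 fell in CA1, and 12 rose in CA1 against T1. Of all 14417 tested genes 2899 rose and 4729 fell in T1 under it. In CA1 3810 rose and 6477 fell, and in CA1 against T1 3646 rose. The cause of these shifts was not tested. Falls in T1 against A10 (2 in the reported fit) numbered 4 with upper-quartile scaling, DESeq2 and limma-voom, 10 in the 6 libraries compared, and 5 without T1 replicate 1 and NeoT replicate 3. In the same order, falls over all tested genes numbered 3914, 3833 and 4039 of 14417, 4184 of 13770 and 4014 of 14648. Falls in CA1 against A10 (1 in the reported fit) numbered 2 with DESeq2, limma-voom and without T1 replicate 1 and NeoT replicate 3, and 3 in the 6 libraries compared. Over all tested genes they numbered 5263 and 5332 of 14417, 5622 of 14648 and 5472 of 13762.

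With each library left out in turn, rises numbered 63 to 69 in NeoT, 14 to 28 in T1 and 26 to 42 in CA1 against A10, and 16 to 30 in CA1 against T1. Falls numbered 1 to 5 in T1 (1 without T1 replicate 3, A10 replicate 1 or A10 replicate 3, 4 without NeoT replicate 3 or CA1 replicate 3, 5 without A10 replicate 2) and 1 to 3 in CA1 against A10, 66 to 76 in T1 against NeoT and 7 to 8 in CA1 against T1. Where a line kept 2 libraries, the fit shared its spread with the other lines. Medians ran from 0.57 to 0.78 in NeoT, 0.03 to 0.09 in T1 and 0.17 to 0.24 in CA1. Replicate numbers were not taken to pair the libraries, since no same-numbered pair reached 0.1 over all tested genes. Over the 76 genes several same-numbered pairs did. They included the 3 pairs of CA1 and A10, replicate 1 of NeoT with that of T1 (0.61) and replicate 2 of NeoT with that of CA1 (0.55). Others lay below 0, down to -0.30 for replicate 2 of T1 and A10, and differently numbered pairs reached 0.54. With a replicate block 66 members rose in NeoT, 21 rose and 4 fell in T1, and 37 rose and 2 fell in CA1. Depth limited none of the 76 genes, each of which had at least 1732 counts in every library. RPL22L1, RPL39L and the other non-members were not refitted.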
